A study of Mus musculus with 12 samples.

Results

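Thymocytes that carried the HY T cell receptor and met the higher dose of its peptide were compared with thymocytes that carried the OT1 receptor. The comparison used 8 of the 12 mouse arrays of the series, chosen by the groups in the labels. HY_high is the group of 4 arrays of HY-TCR thymocytes with Smcy peptide at 1e-05 M. OT1 is the group of 4 arrays of OT1-TCR thymocytes, for which the labels name no peptide. All came from RTOC, reaggregate thymic organ culture, in which thymocytes are mixed with thymic stroma and grown as a small organ, and all were taken at day 6. The remaining 4 arrays, HY_low, held HY-TCR thymocytes with the same peptide at 1e-07 M, and they entered the fit as a separate group. Receptor and named peptide differ together between HY_high and OT1, so their parts in any difference cannot be told apart. The labels do not give the strain, sex or age of the mice, do not say whether the cells were sorted, and do not say that arrays of a group came from separate cultures, so p-values measure the spread between arrays, which may be technical.

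Both receptors are transgenes restricted by MHC class I. OT1 recognises a peptide of ovalbumin, and HY recognises a male peptide encoded by Smcy. Immature thymocytes carry both CD4 and CD8, and CD8 is a dimer of an alpha and a beta chain, which class I restricted T cells use as a coreceptor. A strong agonist met in the thymus can delete a thymocyte or divert it to lineages that lose the beta chain of CD8, keep alpha homodimers and take up receptors shared with NK cells, as lymphocytes of the gut epithelium do.

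Intensities were linear values as deposited, and their median was 3.71 and their minimum 1, while between 64.8% and 68.5% of the values on an array of the 2 groups lay below 8. Median intensity per array ran from 3.33 to 3.96, and the 3' probe set of Gapdh exceeded its 5' probe set by 4.62 log2 units on average in OT1 and 4.55 in HY_high (two-sided exact permutation test within numbers, p = 0.875, where 4 pairs can give no less than 1 in 8). The share of values at 1 was 19.0% on OT1 array 2 and 3.0% on HY_high array 2, and on the other numbers it differed by less between the groups. Of the 5 measured markers of thymocytes, Cd3e, Cd3d, Thy1 and Cd8a were above 8 on every array of both groups, while Cd4 was between 3.88 and 8.55. Bulk RNA cannot separate fewer cells of a type from less RNA per cell.

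Among 12422 probe sets 15 passed with limma at an adjusted p under 0.05, which is 0.121% of them. In HY_high 13 were higher (0.105%) and 2 lower (0.0161%), and the groups did not overlap in 251 probe sets (2.02%). With values under 8 raised to 8, 36 of 5935 probe sets above 8 on some array passed (0.607%), 31 higher (0.522%) and 5 lower (0.0842%). Of the 36, 4 (Cd244a, Xcl1, Car2 and Plscr1) were below 8 on every OT1 array and 1 on every HY_high array. Such a probe set entered the floored test through the other arrays and has no spread left in the dim group, so its floored difference is a lower bound and its floored p is not used as support. With the dimmest probe sets left out and no floor, 118 of 8695 passed (1.36%), 98 higher (1.13%) and 20 lower (0.23%), and 29 of the 118 were below 8 on every OT1 array. The mean that decided which were dim included HY_high, so a probe set dim in OT1 and HY_low could stay in through HY_high. A call of such a probe set in that setting is not used as support. Results are therefore given with all probe sets, with the floor at 8 and with dim probe sets left out, and all log2 differences are HY_high minus OT1, with the standard error of the fit and 4 arrays per group. Few calls survived the loss of an array. Of the 11 called probe sets with 1 gene, 1 (Trav9d-3) kept its call whichever single array was left out and 7 lost it each time. Of 31 such probe sets called with the floor, 26 lost the call whichever array number was left out and 1 (Trav9d-3) never did. A rule chosen after the data were seen, a difference of 2-fold or more in the same direction in 4 of 4 array numbers with the floor, was met by 14 probe sets higher in HY_high (0.236%) and 3 lower (0.0505%).

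**Figure D1:**
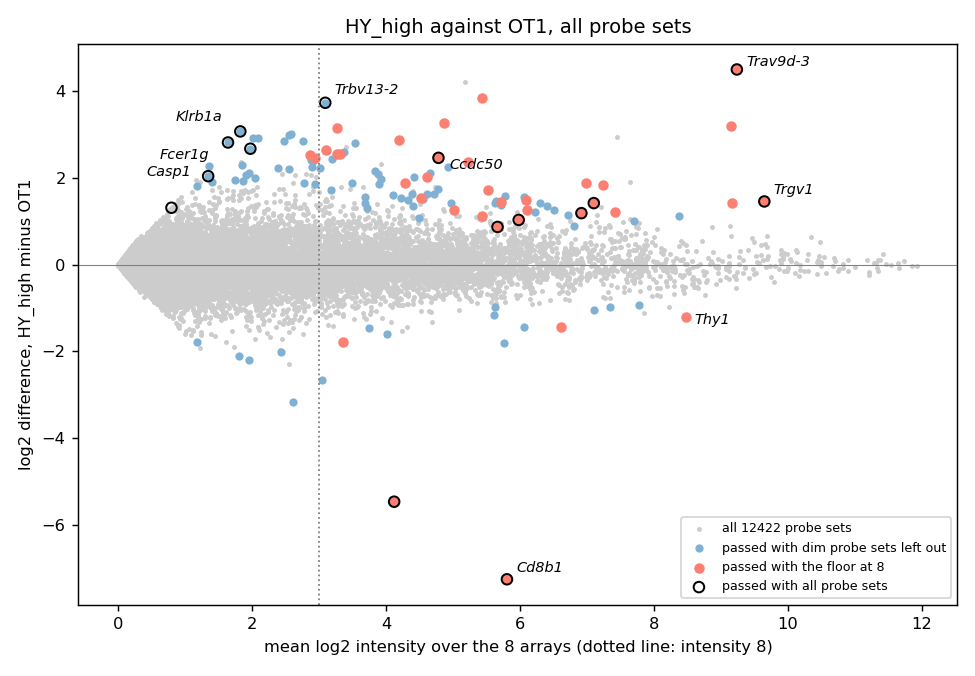
Mean log2 intensity of the 8 arrays (x axis) and log2 difference between HY_high and OT1 (y axis) for each of 12422 probe sets. Open black circles mark the 15 that passed with all probe sets, red points the 36 that passed with the floor at 8 and blue points those that passed with dim probe sets left out; Cd8b1 lies lowest at -7.26 and Trav9d-3 highest at 4.50.

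The clearest differences with bright signals were in the T cell receptor itself and its coreceptor. Trav9d-3, an alpha chain variable segment, read 243, 91.4, 142 and 82.5 on OT1 arrays 1 to 4 and 4386, 2527, 2694 and 2312 on HY_high arrays 1 to 4. The lowest HY_high array was above the highest OT1 array, and the log2 difference was 4.50 ± 0.21 (limma adjusted p = 0.000366 with all probe sets, 1.78e-05 with the floor). The call held with every single array left out, and was lost without the arrays numbered 3 of all groups (log2 difference between 4.34 and 4.61 over all arrays and numbers left out). Another of its probe sets rose by 3.20 ± 0.47 with the floor (adjusted p = 0.0265, or 0.0759 with all probe sets), and the last, near the lowest value, gave -0.52. HY_low arrays, which carry the same receptor, read 1673 to 4890 on the first of these probe sets.

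Trbv13-2, a beta chain variable segment of the family used by the HY receptor, read 2.45, 2.94, 2.11 and 1.96 in OT1 and 15.7, 38.9, 32.2 and 47.9 in HY_high. OT1 lay below 8 on all arrays and HY_high above it on all, which gave 3.74 ± 0.46 as log2 difference (limma adjusted p = 0.0448) and 1.96 when the floor was set (adjusted p = 0.0887). Its other probe set, brighter and of a type open to other members of the family, went the other way in 4 of 4 numbers. Its geometric means were 101 in OT1 and 28.9 in HY_high, a log2 difference of -1.80. This passed with dim probe sets left out (limma adjusted p = 0.0286), but not with all probe sets (0.295) or the floor (0.183). Trgv1, a gamma chain variable segment, was bright in both groups, at 535, 479, 443 and 487 in OT1 and at 1354, 1501, 1391 and 1116 in HY_high. It rose by 1.46 ± 0.16 (adjusted p = 0.0265, or 0.00515 with the floor), and HY_low read 790 to 1426. The call of Trgv1 was lost whichever single array was left out, and without the number in the fit (limma adjusted p = 0.139). Near-identical segments can share a probe set, so which segment was read is uncertain.

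A probe set to which the annotation gives no gene fell too, from 219, 37.0, 220 and 101 in OT1 to between 2.05 and 3.64 in HY_high. HY_low, at 2.39 to 5.34, was as dim. The log2 difference was -5.47 ± 0.40 with all probe sets (limma adjusted p = 0.00643) and -3.86 with the floor, a bound since all HY_high arrays were below 8. Another probe set without a gene was higher, with geometric means of 84.0 in OT1, 141 in HY_low and 225 in HY_high. Its log2 difference was 1.42 ± 0.13 (limma adjusted p = 0.0192, 0.00515 with the floor and 0.194 without the number in the fit). The remaining probe set without a gene that passed with all probe sets was below 8 on every array.

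Cd8b1, the beta chain of CD8, was the gene that fell furthest. It read 219, 835, 1032 and 1219 in OT1 and 8.18, 1, 6.18 and 8.26 in HY_high, so that every HY_high array was close to or below 8 and no OT1 array was under 219. The log2 difference was -7.26 ± 0.74 with all probe sets (limma adjusted p = 0.0235) and -6.42 ± 0.43 with the floor (adjusted p = 0.000361). The floor left almost no spread among the HY_high arrays. The -6.42 is therefore a bound on the fall, and the floored p is not used as support. Without OT1 array 1, 2, 3 or 4, or HY_high array 3 or 4, the adjusted p lay between 0.0529 and 0.135 with all probe sets, while the log2 difference lay between -8.14 and -6.44 over every array or number left out. HY_low kept the gene at 172, 698, 1042 and 1374, a log2 difference of HY_high from HY_low of -7.15 (adjusted p = 0.0564).

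Cd8a, the alpha chain, stayed bright. It read 257, 625, 315 and 264 in OT1 and 85.4, 194, 169 and 216 in HY_high. All HY_high arrays were below all OT1 arrays, but the log2 difference of -1.11 ± 0.38 did not pass (limma adjusted p = 0.403 with all probe sets, 0.241 with the floor and 0.0926 with dim probe sets left out).

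**Figure D2:**
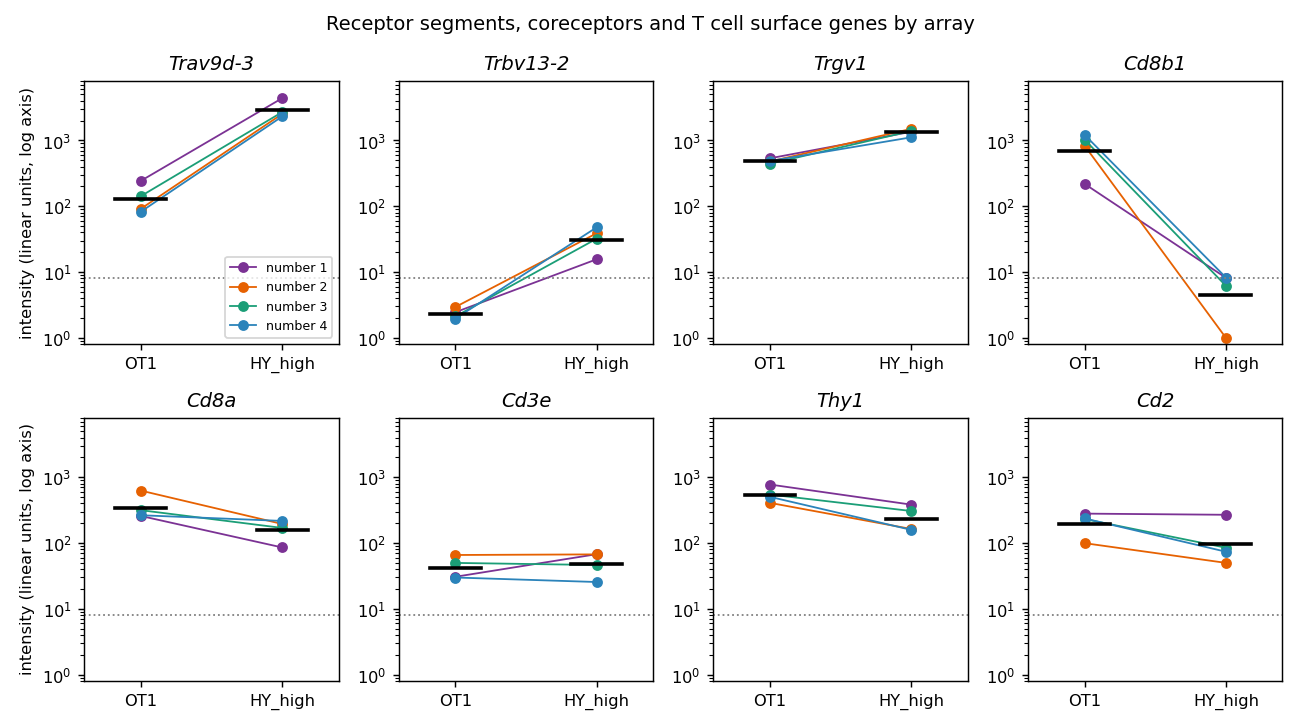
Intensity on each array (log axis) of 3 receptor segments, both chains of CD8, Cd3e, Thy1 and Cd2 in OT1 and HY_high. Lines join arrays of the same number, black bars are geometric means of 4 arrays and the dotted line marks 8; Cd8b1 drops to the dotted line or below on all 4 HY_high arrays, whereas Cd3e overlaps between the groups.

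Of 13 measured genes for receptor chains, coreceptors and T cell surface proteins, 1 passed with all probe sets (Cd8b1), 2 with the floor and 3 with dim probe sets left out, each of them lower in HY_high. The list median was -0.48, against 0.01 over all 8251 genes. Thy1, a glycoprotein of T cells, read 772, 407, 544 and 502 in OT1 and 382, 163, 306 and 158 in HY_high, and it fell with the floor by 1.21 ± 0.20 (limma adjusted p = 0.0460, or 0.0993 with all probe sets). Cd2, an adhesion receptor, was lower in each number, though hardly so in number 1 (279 and 268). It passed only with dim probe sets left out (-1.05 ± 0.26, adjusted p = 0.0402). The CD3 chains that carry the receptor's signal did not follow, with Cd3e at 30.6, 65.6, 49.7 and 29.8 in OT1 and 67.5, 67.0, 46.2 and 25.5 in HY_high (log2 difference 0.21 ± 0.23, adjusted p = 0.804). Cd5, an inhibitory surface protein often used as a measure of receptor signal strength, had -0.48 ± 0.35 (adjusted p = 0.698), and Cd4 had -0.35 ± 0.42 (adjusted p = 0.824).

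Several receptors and adaptors known from NK cells were higher in HY_high, most of them at dim values. Of 18 measured, 2 passed with all probe sets, 1 with the floor and 6 with dim probe sets left out, none of them lower. Fcer1g and Klrb1a stayed in the last of these settings only through their HY_high values. Cd244a entered the floored test only through HY_high. The median was 1.20 without a floor and 0.10 with it, since 9 of the 18 were below 8 on all 8 arrays. Fcer1g, the adaptor of Fc receptors and of activating NK receptors, read 1.85, 1.02, 1 and 1 in OT1 and 16.4, 11, 5.17 and 5.02 in HY_high. The groups did not overlap, and it rose by 2.82 ± 0.27 (limma adjusted p = 0.0201), but the difference was 0.37 with the floor (adjusted p = 0.401). A further Fcer1g probe set, at geometric means of 1.81 and 1.53, gave -0.24. Klrb1a, a lectin-like receptor of the NK1.1 family, read 1.93, 1.03, 1 and 1.11 in OT1 and 12.7, 7.00, 7.31 and 17.1 in HY_high, and it rose by 3.07 ± 0.32 (adjusted p = 0.0259); the floor left 0.44 of this (adjusted p = 0.372).

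Cd244a, the signalling receptor 2B4 of NK cells and cytotoxic T cells, was the 1 member called with the floor. It read 2.16, 3.85, 2.70 and 3.75 in OT1 and 15.9, 22.6, 14.2 and 18.9 in HY_high, a log2 difference of 2.54 ± 0.47 (limma adjusted p = 0.110 with all probe sets, 0.00695 with dim probe sets left out). Every HY_high array was above 8 and no OT1 or HY_low array was, so the 1.14 found with the floor is a lower bound. Tyrobp, the adaptor DAP12, had 2.25 ± 0.46 (adjusted p = 0.0120 with dim probe sets left out, 0.194 with the floor). Crtam, a receptor of activated class I restricted T cells and NK cells, went from between 1.03 and 2.04 to between 8.15 and 14.3, or 2.91 ± 0.45 (adjusted p = 0.00255 with dim probe sets left out, 0.210 with the floor). Cd160, which binds MHC class I and marks gut intraepithelial lymphocytes, was the brightest of those that passed, at 26.5, 33.1, 70.1 and 85.5 in OT1 and 68.8, 169, 140 and 166 in HY_high (1.42 ± 0.37, adjusted p = 0.0305 with dim probe sets left out, 0.161 with the floor). Klrd1, the CD94 chain of lectin receptors, was bright in both groups and did not pass (0.99 ± 0.72, adjusted p = 0.699). The NK cell markers Klrk1 and Ncr1 stayed below 8 on all arrays. Of these 2, 1 had a positive log2 difference, of 1.48, and 1 was at an unadjusted p under 0.05 (limma). A probe set shared by Klrb1b and Klrb1c, the latter also an NK cell marker, was higher in HY_high. It read 1.95, 1.03, 2.56 and 1.13 in OT1 and 12.8, 7.13, 9.72 and 10.9 in HY_high. Its log2 difference was 2.68 ± 0.32 (limma adjusted p = 0.0448 with all probe sets, 0.210 with the floor). The part of NK cells in these rises was not tested.

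**Figure D3:**
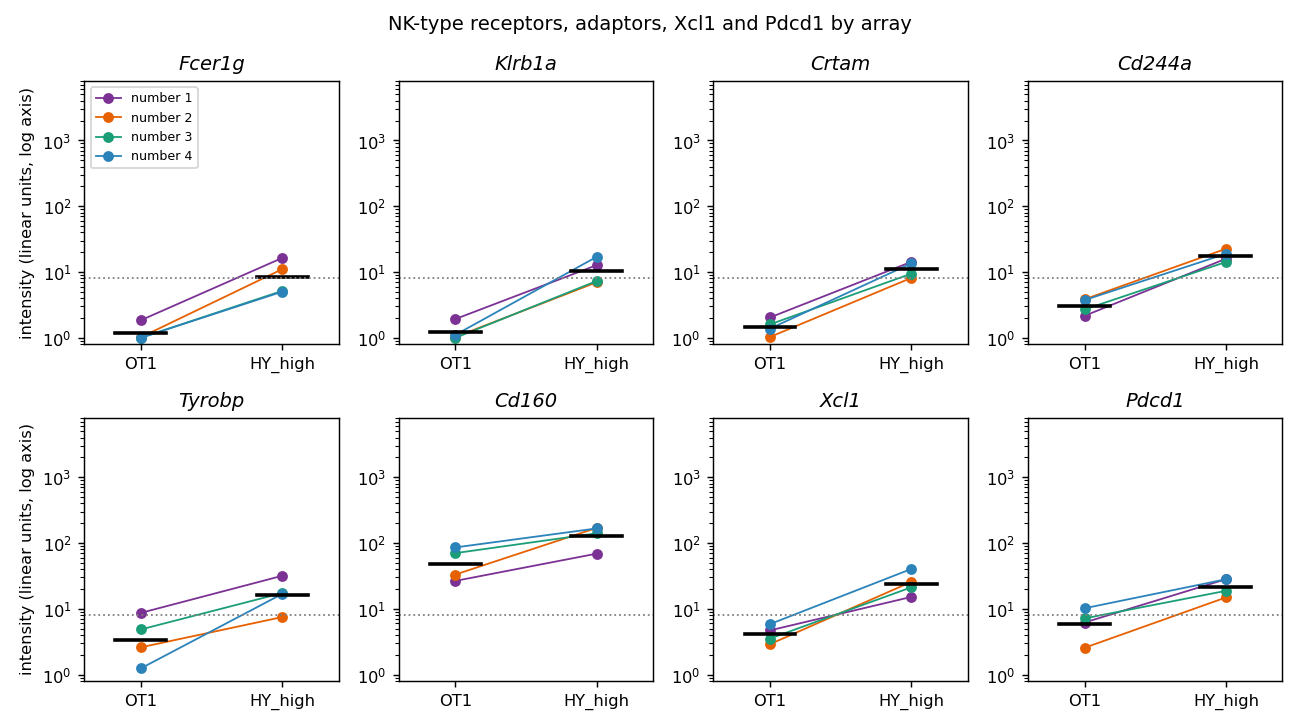
Intensity on each array (log axis) of 6 NK-type receptors and adaptors, the chemokine Xcl1 and the inhibitory receptor Pdcd1 in OT1 and HY_high. Lines join arrays of the same number, black bars are geometric means of 4 arrays and the dotted line marks 8; all 4 lines rise in every panel, and for Fcer1g, Klrb1a and Crtam all OT1 arrays sit near 1 to 2.

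Genes that T cell receptor signals induce leaned upward. Of 26 measured, 24 had a positive log2 difference, against 4201 of all 8251 genes. The list median was 0.86 without a floor and 0.20 with it, against 0.01 and 0.00 over all genes. With all probe sets limma called 0 of them (14 at an unadjusted p under 0.05, against 895 of the 8251 genes) and with the floor 0, while 3 passed with dim probe sets left out. Pdcd1, the inhibitory receptor PD-1, read 6.17, 2.55, 7.13 and 10.2 in OT1 and 28.1, 14.8, 18.7 and 28.0 in HY_high, without overlap. Its log2 difference was 1.90 ± 0.26 (adjusted p = 0.0581 with all probe sets, 0.0648 with the floor, 0.00410 with dim probe sets left out). Egr2, a transcription factor induced by the receptor, had 2.03 ± 0.61 (adjusted p = 0.0425 with dim probe sets left out), although in number 2 OT1 was higher, at 33.3 against 27.5. Nr4a2, an orphan nuclear receptor of the Nur77 family, had 2.29 ± 0.43 at values of 1 to 11.7 (adjusted p = 0.0107 with dim probe sets left out). Tnfrsf18, the receptor GITR, had 0.87 ± 0.17 at brighter values, from 50.5 to 122 in OT1 and from 85.7 to 170 in HY_high (adjusted p = 0.126).

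Effector genes of cytotoxic cells had positive differences in 13 of 17 cases, against 4201 of all 8251 genes. The list median was 0.74 without a floor and 0.02 with it, and the medians within numbers 1 to 4 were 1.01, 0.12, 0.61 and 0.71. Of the 17, limma called 0 with all probe sets (4 at an unadjusted p under 0.05, against 895 of the 8251 genes). With the floor and with dim probe sets left out 1 passed. That gene was Xcl1, a chemokine of activated CD8 T cells and NK cells, which read 4.69, 2.89, 3.52 and 5.84 in OT1 and 15.1, 25.6, 21.2 and 40.2 in HY_high. The log2 difference was 2.55 ± 0.35 (limma adjusted p = 0.0581 with all probe sets, 0.00159 with dim probe sets left out). All OT1 arrays were below 8, so the 1.58 found with the floor is a lower bound. Ccl5, a chemokine of effector T cells, was 160, 5.19, 289 and 65.1 in OT1 and 612, 713, 441 and 280 in HY_high, higher in each number but with a wide spread among OT1 arrays (2.94 ± 1.02, adjusted p = 0.418). Gzmb, a granzyme, had -0.85 ± 0.48 (adjusted p = 0.622), and Prf1, the pore-forming perforin, was below 8 on all arrays. Of 17 measured regulators of innate-like lymphocytes 0 passed with all probe sets, the floor or dim probe sets left out (limma, 5 at an unadjusted p under 0.05, median 0.47 without a floor and 0.00 with it). Id2, an inhibitor of E proteins, had 1.33 ± 0.40 (adjusted p = 0.344).

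Interferon response genes were higher in HY_high mainly in 3 of the 4 numbers. Interferons act through STAT and IRF proteins, and IRF complexes bind a pair of GAAA repeats, the interferon-stimulated response element. Of 32 measured genes 31 had a positive log2 difference, against 4201 of all 8251 genes. The list median was 1.27 without a floor and 0.69 with it, against 0.01 and 0.00 over all genes. By limma 0 passed with all probe sets (23 at an unadjusted p under 0.05, against 895 of the 8251 genes), 1 with the floor and 9 with dim probe sets left out, none of them lower. The median difference was 0.17 within number 1 and 1.84, 1.48 and 1.20 within numbers 2, 3 and 4. OT1 array 1 was the highest OT1 array for Usp18, Isg15 and Ifit1, which are described below. Isg15 was also highest on array 1 in HY_low (160) and in HY_high (138), while for Ifit1 HY_high array 1 was the lowest of its group (7.77). The parts of OT1 array 1, of HY_high array 1 and of the number itself were not tested.

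Usp18, a protease that removes ISG15 and dampens interferon signalling, passed with the floor. It read 65.3, 3.05, 11.4 and 3.40 in OT1 and 123, 81.8, 137 and 48.8 in HY_high, a rise of 2.62 with the floor (limma adjusted p = 0.0489) and a log2 difference of 3.27 ± 0.60 without it (adjusted p = 0.110). Isg15, the ubiquitin-like modifier itself, read 147, 3.14, 11.8 and 6.66 in OT1 and 138, 62.0, 73.5 and 30.6 in HY_high, so that it was not higher in number 1 and was higher in the other three (2.26 ± 0.67, adjusted p = 0.0303 with dim probe sets left out). Ifit1, which binds foreign RNA, read 12.6, 2.85, 4.75 and 1.41 in OT1 and 7.77, 18.4, 72.4 and 19.8 in HY_high, with the same exception (2.43 ± 0.70, adjusted p = 0.0353 with dim probe sets left out). Igtp, a GTPase of cell-autonomous defence, was higher in all numbers, at 19.2, 8.37, 39.9 and 20.5 against 37.0, 54.6, 79.1 and 43.3 (1.43 ± 0.28, adjusted p = 0.0134 with dim probe sets left out, 0.0852 with the floor). Gbp3, a guanylate-binding GTPase, was between 5.77 and 9.40 in OT1 and between 9.94 and 36.1 in HY_high (1.56 ± 0.33, adjusted p = 0.0305 with dim probe sets left out). Irf9, the DNA-binding part of the complex that drives these genes, had 1.22 ± 0.29, and Iigp1, Ifi204 and Ifi27l2a also passed with dim probe sets left out.

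The promoters of 4 of these genes are shown because they carry this pair. Each is the RefSeq window of 250 bases before to 50 bases after a gene's start in GRCm38.p6, 5' to 3' on the gene's strand, with matches to GAAANNGAAA on either strand (TTTCNNTTTC where it lies on the other) in capitals and overlapping matches merged.
Igtp (chr11:58199306-58199605, plus strand): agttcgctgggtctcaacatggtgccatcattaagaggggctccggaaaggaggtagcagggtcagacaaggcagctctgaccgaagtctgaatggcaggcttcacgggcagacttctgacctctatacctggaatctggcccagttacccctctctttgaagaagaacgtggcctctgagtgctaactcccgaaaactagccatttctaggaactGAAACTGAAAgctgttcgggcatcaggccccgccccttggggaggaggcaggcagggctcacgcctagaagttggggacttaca
Gbp3 (chr3:142559794-142560093, plus strand): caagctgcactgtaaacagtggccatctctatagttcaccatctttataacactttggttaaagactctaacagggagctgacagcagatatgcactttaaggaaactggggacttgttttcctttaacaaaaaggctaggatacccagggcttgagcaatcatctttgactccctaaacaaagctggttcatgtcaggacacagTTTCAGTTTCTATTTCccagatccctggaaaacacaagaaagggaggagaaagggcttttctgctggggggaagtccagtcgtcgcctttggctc
Ifit1 (chr19:34640639-34640938, plus strand): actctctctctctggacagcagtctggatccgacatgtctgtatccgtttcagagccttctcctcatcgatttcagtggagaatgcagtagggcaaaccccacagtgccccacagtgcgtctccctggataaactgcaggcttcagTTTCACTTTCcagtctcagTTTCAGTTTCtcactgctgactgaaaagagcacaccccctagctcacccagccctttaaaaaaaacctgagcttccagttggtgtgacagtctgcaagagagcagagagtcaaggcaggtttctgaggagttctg
Isg15 (chr4:156200769-156201068, minus strand): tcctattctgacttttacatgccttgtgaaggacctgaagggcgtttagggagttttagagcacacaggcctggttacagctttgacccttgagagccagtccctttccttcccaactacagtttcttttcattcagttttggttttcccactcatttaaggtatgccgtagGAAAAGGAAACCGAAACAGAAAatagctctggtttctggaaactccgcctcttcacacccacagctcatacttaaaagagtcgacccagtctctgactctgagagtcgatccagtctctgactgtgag
The match of Igtp ends 25 bases before the start, and those of Isg15 span 57 to 78 bases before it. Of the measured interferon genes 25 had such a window, and 13 of them (52%) held a match, against 3.89% of the 6576 measured genes with a window and 3.44% of all 32851 windows. Of the 5 that passed with dim probe sets left out and had a window, 4 held a match, the exception being Irf9. A match describes letters in this window and is no evidence of binding.

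**Figure D4:**
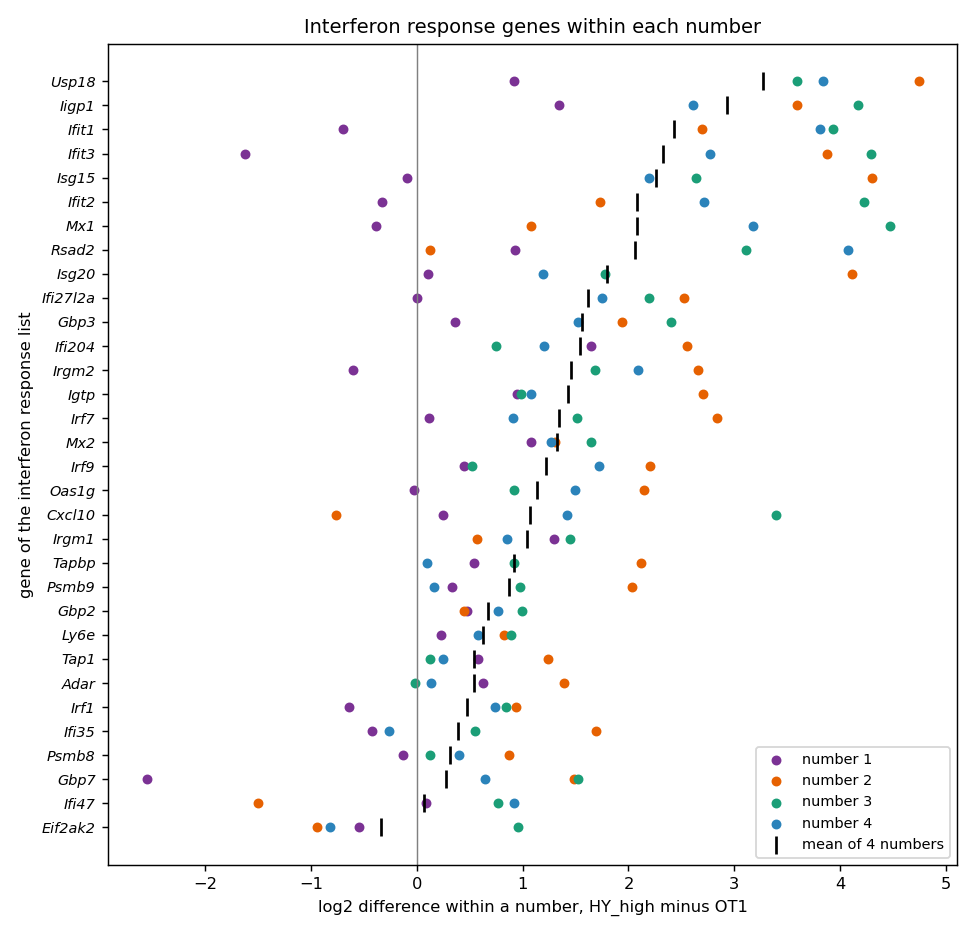
Log2 difference between HY_high and OT1 within each array number (points, no floor) for 32 interferon response genes, ordered by their mean difference (black ticks). Purple points of number 1 lie near 0 or below it for Ifit1, Ifit3, Isg15 and Mx1, while the other numbers are to the right of 0 for these genes.

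MHC class I genes, many of which interferon also induces, had a median of 0.61 over 15 measured genes, with and without the floor. One passed with the floor, H2-D1, a classical class I heavy chain. It read 577, 339, 307 and 251 in OT1 and 1309, 780, 959 and 784 in HY_high, a rise of 1.42 ± 0.21 with the floor (limma adjusted p = 0.0288, or 0.0772 with all probe sets). A further H2-D1 probe set rose by 3.48 with the floor (adjusted p = 0.0460), with 2.85 to 24.3 in OT1 and 37.9 to 294 in HY_high, and the last had 0.74 (adjusted p = 0.523). The 3 H2-D1 probe sets are of a type open to related class I genes or alleles, and the strains of the 2 groups are not given. B2m, the light chain, was higher in all numbers by 0.67 ± 0.13 without passing (adjusted p = 0.115), and Tap1, the peptide transporter, had 0.54 ± 0.23 (adjusted p = 0.499).

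Of 24 measured apoptosis regulators, 1 passed with all probe sets, 1 with the floor and 2 with dim probe sets left out, all higher in HY_high. Bcl2l11 encodes BIM, which is needed to delete thymocytes that bind self strongly. It read 21.6, 38.7, 36.0 and 34.8 in OT1 and 69.0, 134, 71.4 and 87.9 in HY_high, without overlap, and rose with the floor by 1.45 ± 0.24 (limma adjusted p = 0.0442, or 0.0784 with all probe sets). HY_low, at 20.5 to 40.9, was close to the OT1 range. The other 2 Bcl2l11 probe sets, at geometric means under 8, gave -0.83 and 0.47. Probe sets that match several genes were not counted in this list, among them those of the Bcl2a1 family. A probe set of that family had 2.65 ± 0.49 (limma adjusted p = 0.110 with all probe sets, 0.00412 with dim probe sets left out). Another, shared also with Mthfs, had 2.80 ± 0.45 (adjusted p = 0.0805 and 0.00190). Casp1, the inflammasome caspase, passed with all probe sets at 2.04 ± 0.25 (adjusted p = 0.0448), but no array of either group was above 8. It stayed in the setting without dim probe sets only through HY_high.

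A few genes outside these groups passed with all probe sets and were higher in every number at values mostly above 8. Ccdc50, which encodes a coiled-coil protein that binds ubiquitin, read 4.54, 15.2, 21.9 and 12.4 in OT1 and 30.6, 110, 77.7 and 66.9 in HY_high (2.47 ± 0.31, limma adjusted p = 0.0448, or 0.00930 with the floor). The call of Ccdc50 was lost whichever single array was left out, and without the number in the fit (limma adjusted p = 0.194). Rbms1, an RNA-binding protein, Nek7, a kinase that is part of the NLRP3 inflammasome, and Mycbp2, a large ubiquitin ligase, passed with smaller differences of 1.03 ± 0.13, 1.19 ± 0.15 and 0.87 ± 0.11. In these 3 genes arrays of the same number were high or low together and the groups overlapped, and without the number in the fit the adjusted p was 1 for each.

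Car2, a carbonic anhydrase, was between 1 and 7.11 in OT1 and read 26.5, 26.2, 24.8 and 40.0 in HY_high. The log2 difference was 3.16 ± 0.56 (limma adjusted p = 0.106 with all probe sets, 0.00255 with dim probe sets left out) and at least 1.85 with the floor, and HY_low, at 1.11 to 4.47, was as dim as OT1. Capn3, a calpain protease, rose with the floor by 2.43 (adjusted p = 0.00930, or 0.0759 with all probe sets), from between 3.26 and 12.5 to between 28.5 and 83.3. Plscr1, a phospholipid scramblase, read 4.86, 1, 4.90 and 4.79 in OT1 and 15.0, 14.6, 20.3 and 24.1 in HY_high, with 2.06 to 7.64 in HY_low. Its log2 difference was 2.47 ± 0.38 (adjusted p = 0.0759 with all probe sets, 0.00376 with dim probe sets left out) and at least 1.18 with the floor. Psen2, a subunit of gamma-secretase, rose with the floor by 1.70 (adjusted p = 0.0265, or 0.0859 with all probe sets). Zfp36l1, which promotes decay of AU-rich mRNAs, rose with the floor by 1.71 (adjusted p = 0.0265, or 0.0714 with all probe sets).

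Among 27 measured adhesion and homing genes 1 passed with the floor and 2 with dim probe sets left out. Cd9, a tetraspanin, read 8.93, 14.3, 14.1 and 12.2 in OT1 and 20.6, 122, 42.8 and 54.6 in HY_high. It rose by 2.02 ± 0.30 with the floor (limma adjusted p = 0.0288, or 0.0772 with all probe sets). Itgav, the alpha V integrin, had 1.41 ± 0.34 (adjusted p = 0.0259 with dim probe sets left out, 0.134 with the floor), and its other 2 probe sets, both dim, had 0.45 and -0.61. Of 26 annexins, S100 proteins and cytoskeletal linkers 1 passed with the floor. Ahnak, a giant scaffold protein beneath the cell membrane, read 64.9, 85.7, 113 and 64.1 in OT1 and 116, 410, 529 and 263 in HY_high. The rise was 1.84 ± 0.29 with the floor (adjusted p = 0.0381, or 0.0836 with all probe sets).

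Fewer genes went down. Of 19 measured genes of CD4 CD8 double-positive thymocytes, Cd8b1 passed in all 3 settings, and with dim probe sets left out Satb1 also passed downward and Nrgn upward. Satb1, a chromatin organiser of thymocytes, read 7.42, 85.9, 296 and 151 in OT1 and 5.30, 21.2, 133 and 78.2 in HY_high (-1.15 ± 0.29, limma adjusted p = 0.0470 with dim probe sets left out, 0.205 with the floor). The recombinase gene Rag1 and Dntt, which adds bases at receptor junctions, were near or below 8 in most arrays and did not pass (-1.44 ± 0.47 and -1.46 ± 0.32). The list median was -0.23.

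St6galnac2, a sialyltransferase, read 12.9, 7.57, 34.1 and 34.1 in OT1 and 2.06, 1.57, 1.61 and 3.27 in HY_high (-3.18 ± 0.63, limma adjusted p = 0.00493 with dim probe sets left out, 0.210 with the floor). HY_low was also dim, at 1.83 to 5.80. Il6ra, the interleukin-6 receptor, went from between 8.39 and 44.1 to between 1.16 and 6.40 (-2.65 ± 0.53, adjusted p = 0.00512 with dim probe sets left out, 0.332 with the floor). In the same list of 27 cytokine receptors and SOCS genes Kit, the receptor of stem cell factor, passed upward with dim probe sets left out (3.01 ± 0.65, adjusted p = 0.00731). Kit was 17.6 to 56.6 on HY_high arrays 2 to 4 but 2.95 on array 1, against 1 to 4.66 in OT1.

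Lists of housekeeping and growth functions stayed near the median of all genes. No member of the lists of cell cycle and replication (38 genes), glycolysis (16), cholesterol synthesis (14), immediate early and heat shock genes (21) or ribosomal proteins (20) passed with all probe sets, the floor or dim probe sets left out (limma, with 1, 1, 1, 0 and 1 at an unadjusted p under 0.05). Their medians were -0.17, -0.05, 0.03, -0.02 and -0.09 without a floor. Kinases and adaptors of receptor signalling had a median of -0.02 over 19 genes. Ptpn22, a phosphatase that restrains the receptor's signal, passed with dim probe sets left out (0.89 ± 0.15, limma adjusted p = 0.0351), as the single member to do so.

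**Figure D5:**
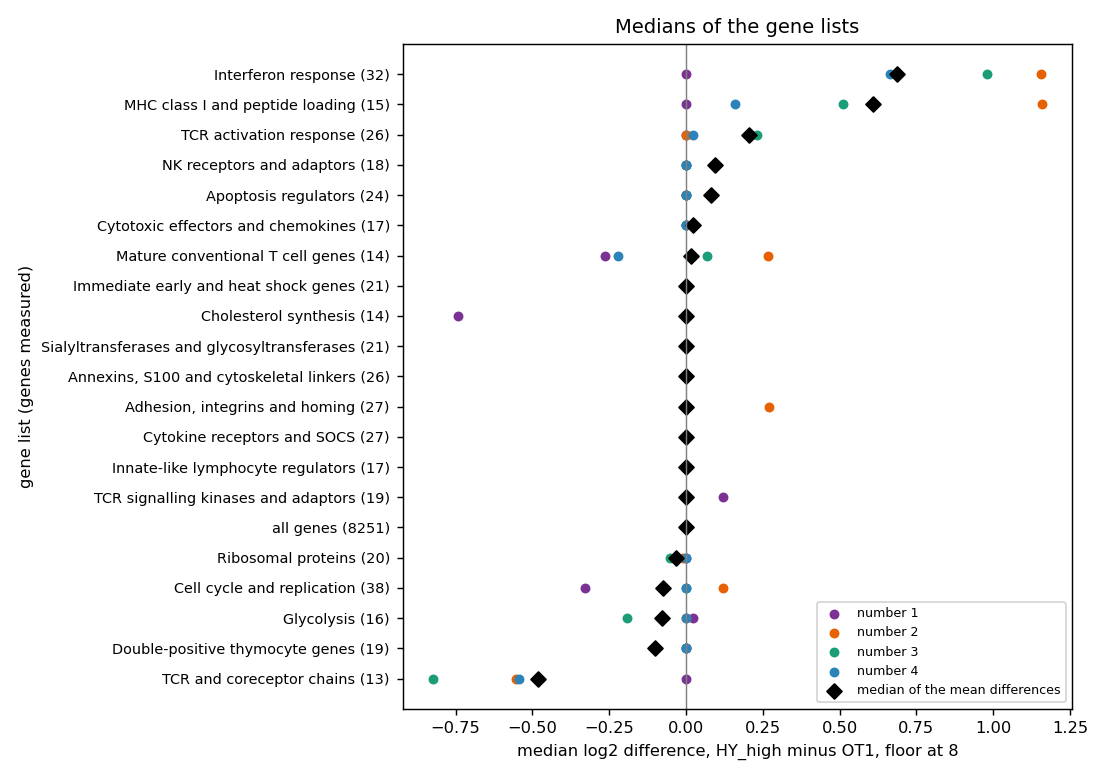
Median log2 difference between HY_high and OT1, with the floor at 8, over the measured genes of each list (black diamonds, numbers of genes in brackets) and within each array number (coloured points). The interferon and MHC class I lists lie furthest to the right and the list of receptor and coreceptor chains furthest to the left, and all genes lie at 0.00.

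Markers of other cells that such a culture can hold were mostly dim in both groups. Of 18 markers of macrophages and dendritic cells 12 were below 8 on all 8 arrays, and Lyz2, Apoe, Adgre1 and Itgam had geometric means under 2 in both groups. A positive log2 difference was found in 12 of the 18, against 4201 of all 8251 genes. The list median was 0.22 without a floor and 0 with it. The summed intensity of the 18 was 132 to 351 in OT1 and 172 to 594 in HY_high. Most of that was Ctss, a cathepsin that is also induced by interferon, at 81.2, 288, 192 and 106 in OT1 and 103, 528, 437 and 325 in HY_high (1.0 ± 0.21, limma adjusted p = 0.0275 with dim probe sets left out). Fcer1g and Tyrobp are also expressed by myeloid cells, and the part of such cells in their rise was not tested.

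The 6 measured B cell markers summed to 22.5 to 62.7 in OT1 and 33.8 to 190 in HY_high, with none past the threshold. Of 8 markers of thymic epithelium 7 were below 8 on all arrays, and the sums were 11.1 to 19.1 in OT1 and 13.2 to 31.2 in HY_high. All 8 epithelial markers had a positive log2 difference (median 0.43 without a floor and 0 with it), with 1 at an unadjusted p under 0.05 (limma). Fibroblast markers summed to 56.8 to 78.8 and 54.9 to 94.2, and endothelial markers to 33.3 to 39.8 and 33.1 to 49.0. Mast cell markers summed to 11.8 to 44.7 and 12.2 to 18.2, and granulocyte markers to 19.1 to 31.3 and 19.5 to 29.2. The erythroid list differed between the groups, at 20.03 to 33.5 and 38.7 to 57.7, through Car2, while Hba-a1 and Alas2 had log2 differences of -0.01 each.

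The sex of the mice is not given, and Xist, expressed from the inactive X of females, was 9.89, 1, 1.68 and 304 in OT1 and 32.7, 308, 225 and 265 in HY_high. Eif2s3y, a Y-linked gene, was 6.12, 95.5, 43.0 and 1.11 in OT1 and 7.36, 2.96, 1.60 and 1.38 in HY_high. OT1 arrays 2 and 3 were low for Xist and high for Eif2s3y, and OT1 array 4 was the reverse, so the OT1 arrays were not alike in these genes, and the part of sex in other differences was not tested.

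HY_low and HY_high share the receptor and the peptide's identity, so HY_low levels show which differences from OT1 are found at the lower dose too. In the same fit 0 of 12422 probe sets passed between HY_high and HY_low (0%, limma), with 1112 at an unadjusted p under 0.05. With the floor 6 of 5935 passed, and with dim probe sets left out 30 of 8695. Trav9d-3, Trgv1 and the probe set without a gene that fell had levels in HY_low like those in HY_high, as given above. Several interferon genes were also above OT1 in HY_low, with geometric means in OT1, HY_low and HY_high of 9.37, 51.4 and 90.6 for Usp18. For Isg15 these were 13.8, 51.9 and 66.2, and for Igtp 19.0, 44.1 and 51.3. Pdcd1 (5.81, 16.3 and 21.6) and H2-D1 (350.3, 630.0 and 936 on its brightest probe set) were between in HY_low too. For these 5 genes the log2 difference between HY_high and HY_low lay between 0.22 and 0.82, with limma adjusted p from 0.516 to 0.905. Fcer1g (1 to 1.95 in HY_low), Klrb1a (1 to 2.05), Cd244a (1.75 to 6.88), Car2 and Bcl2l11 were at or near their OT1 levels there. Fcer1g and Klrb1a had adjusted p = 0.0564 and 0.0694 for HY_high against HY_low.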

How the data were processed

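Expression was measured on 12 mouse arrays, 8 of them compared here. The authors deposited one table of linear intensities for 12488 probe sets. Their background correction, summary over probes and scaling were not given in the sources used here. Precision is limited by the number of arrays. After removing 66 control probe sets, 12422 were tested on the log2 scale with limma 3.58.1 in R 4.3.3. All 12 arrays entered 1 fit with group and title number as terms and an intensity trend in the moderated variance (6 residual degrees of freedom, two-sided tests, Benjamini-Hochberg adjustment over all probe sets, threshold 0.05).

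The title numbers were taken as pairs because deviations from the group means correlated between HY_high and OT1 arrays of the same number (r from 0.334 to 0.537, others from -0.371 to 0.113). The labels do not state the pairing. Settings beside it were a floor at 8, and leaving out the lowest 30% of probe sets by mean log2 over the 12 arrays. The platform annotation gave 1 gene for 10833 probe sets, several for 396 and none for 1193. Genes with several probe sets are listed by the one brightest on average over the 12 arrays, unless another is given.

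Members and gene lists were chosen with earlier results of these data known. Named genes were up to 20 higher and 14 lower that passed with 1 gene and 1 direction in 4 of 4 numbers, up to 3 of lowest p per list, receptor segments that passed (up to 8), and Cd8a, Cd8b1, Cd4, Cd3e and Cd5. List genes below 8 on all 8 arrays were then left unnamed unless they passed, or serve as markers. A further 35 probe sets were added after their values were seen. They had passed with the floor, passed as list members with dim probe sets left out, or were singled out. Promoter windows are from RefSeq. The fit was tested on simulated data.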

Additional observations from a re-analysis of the deposited data

Results flagged for a closer look

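In 228 groups of 4 arrays (named genes in HY_high or OT1) the highest or lowest array was examined, and 18 stood apart from the other three by more than Dixon's critical value, where chance flags about 1 in 20 groups. Array number 1 gave 10 of them. OT1 array 1 was highest for Klrb1a (1.93), Fcer1g (1.85), Tnfrsf18 (121.8) and H2-K1 (1841.25), and lowest for Rpl7 (273.87) and Tmem230 (5.73). HY_high array 1 was lowest for Rpl7 (487.66), Xist (32.69), C330007P06Rik (36.53) and Ndfip1 (55.5). HY_high array 2 was lowest for Cd8b1 (1) and H2-D1 (37.89), and OT1 array 2 was lowest for Plscr1 (1). HY_high array 3 was lowest for Lgals3 (5.93) and highest for Cd3g (510.99). HY_high array 4 was highest for Car2 (39.98) and Rag1 (5.18), and lowest for Trav9d-3 on its second probe set (1174.78).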

How the results depend on the processing

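Calls depended on the dim end of the arrays and on single arrays. Against 15 with all probe sets (13 higher, 2 lower), 36 passed with the floor at 8 (31 and 5), 118 with dim probe sets left out (98 and 20), 47 with arrays scaled to one median (41 and 6), 29 after quantile normalization (24 and 5) and 53 with array weights (48 and 5). A pseudocount of 8 gave 13 and no variance trend 14. Without the replicate block, which ignores the pairing of title numbers, 9 passed (7 higher, 2 lower), and with the block on the 8 arrays alone, which leaves 3 residual degrees of freedom, 0 passed (0 higher, 0 lower, 998 at an unadjusted p under 0.05). Leaving out 1 array, or all arrays of 1 number with HY_low included, gave 0 to 9 calls (0 to 7 higher, 0 to 2 lower). Chosen after seeing the data, the floor without the block gave 8 (6 higher), and the floor without 1 number gave 1 to 6 (1 to 4 higher, 0 to 2 lower). All 36 calls with the floor also passed with dim probe sets left out, and 9 and 14 of the 15 passed with the floor and with dim probe sets left out. Directions reversed in the leave-one-out settings for Kdr (-0.36 to 0.85), Cd3e (-0.10 to 0.36), Cd3g (-0.051 to 0.62) and Cd3d (-0.059 to 0.40), none of which passed, and with both the floor and 1 number left out for Cd3e (-0.10), Cd3g (-0.012), Cd3d (-0.059) and Ms4a1 (-0.036). The cause of these changes was not tested. The median of all probe sets moved by less than 0.1 under each setting.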
